A study of Mus musculus with 14 samples.

Results

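The genes described are 9 megakaryocyte and platelet genes, taken from a list of names: Itga2b, Itgb3, Gp9, Gp1bb, Gp6, Vwf, Selp, Pf4 and Ppbp. They are 9 of the 55487 genes in the count tables, and each symbol matched a single gene identifier. RNA was sequenced from LSK cells (Lin-Sca1+c-kit+, which hold the stem cells and early multipotent progenitors) and from LK cells (Lin-c-kit+, mostly committed myeloid and erythroid progenitors) of mouse bone marrow. All of these mice, controls included, carried Jak2VF/+, a heterozygous knock-in of Jak2V617F, the activating mutation of JAK2 found in myeloproliferative neoplasms. According to the methods, Mx1Cre turned the allele on after pI-pC, and marrow of induced mice was transplanted into lethally irradiated C57BL/6 mice of 6 to 8 weeks of age, so the sorted cells developed in transplanted hosts. From 4 weeks after transplantation the mice received PBS or IL-1β at 0.5 μg per dose, 3 doses per week, for 16 weeks. Each population has 3 PBS libraries and 2 IL-1β libraries. A separate set of 4 libraries came from marrow MSC of C57BL/6 mice without the Jak2 allele, cultured for 21 days and given PBS (2 libraries) or 5 ng/ml IL-1β (2 libraries) for 72 h.

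Megakaryocytes are the marrow cells that shed platelets. Itga2b and Itgb3 encode the 2 chains of the fibrinogen receptor, integrin αIIbβ3 (CD41 and CD61), and Gp9 and Gp1bb encode subunits of the GPIb-IX-V complex, which binds von Willebrand factor. Gp6 encodes the collagen receptor. Vwf (von Willebrand factor) and Selp (P-selectin) encode adhesive proteins stored in platelet α-granules and in endothelial storage granules, and Pf4 and Ppbp encode the chemokines of the α-granule. Several of these genes, Itga2b and Vwf among them, are also transcribed in stem cells, part of which are primed towards platelets. The antibodies against lineage markers listed in the methods do not include CD41, the product of Itga2b.

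Levels are given as CPM, the read pairs of a gene scaled to a common library size with TMM factors, or as RPKM, the same level divided by the length of the gene's exons in kilobases. Sorted-cell libraries held 4393233 to 18544346 counted read pairs, and each IL-1β library was shallower than each PBS library of its population. The sorted fractions were checked by the genes of their surface markers. Ly6a, which encodes Sca1, stood at 34.1 ± 6.81 CPM (SD, n = 3) in PBS LSK cells and at 0.588 ± 0.289 CPM (SD, n = 3) in PBS LK cells. Kit was at 311.5 CPM or more in the mean of each PBS group. These genes also shifted with treatment in LSK cells. Ly6a was at 14.8 and 26.2 CPM with IL-1β there, against 28.5, 41.7 and 32.2 CPM with PBS. Kit was at 391 and 296 CPM with IL-1β, against 583, 417 and 602 CPM. Neither was called (edgeR adjusted p = 0.310 and 0.282). In LK cells the treatments overlapped for both genes. The labels number the libraries but do not say whether each came from a separate mouse, so the p-values measure the spread between libraries.

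Of the 9 members, 5 had 18 read pairs or more in every sorted-cell library (Itga2b, Itgb3, Vwf, Selp and Pf4). Gp9 had 6 to 118 read pairs per library. Ppbp had 0 to 23, and Gp1bb and Gp6 had 0 or 1. A count of 0 allows up to 3 read pairs, which is 0.155 to 0.735 CPM in these libraries, and this limit covers counting error only. For Gp1bb the low count says little about the gene, because 92.9% of its 2087 exon bases also lie in exons of Sept5 or Gm49601 on the same strand and the authors' counting drops read pairs that fall on more than 1 gene. None of the exon bases of the other 8 members was shared on the same strand.

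The starts of the detected genes are shown because GATA and ETS factors are the textbook regulators of platelet genes and because the members did not all move the same way under IL-1β. RefSeq (GRCm38.p6) listed a promoter window, 250 bases before the start and 50 after it, for 7 of the 9 members. Vwf and Itgb3 had none. The stretch of up to 100 bases just before the start, up to the nearest annotated exon of the gene, is given 5′ to 3′ on the gene's strand. Starts are those of RefSeq, and that of Itga2b lies inside the Ensembl gene span given with its values, because an Ensembl exon begins farther upstream. Letters are lower case, with GATAA and GGAAG or their reverse complements TTATC and CTTCC in capitals.
Itga2b (chr11:102469884-102469942, minus strand): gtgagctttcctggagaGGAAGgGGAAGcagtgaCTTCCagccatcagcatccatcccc
Gp9 (chr6:87777970-87778069, plus strand): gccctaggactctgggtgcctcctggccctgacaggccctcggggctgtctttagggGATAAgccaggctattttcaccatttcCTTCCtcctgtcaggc
Selp (chr1:164115164-164115263, plus strand): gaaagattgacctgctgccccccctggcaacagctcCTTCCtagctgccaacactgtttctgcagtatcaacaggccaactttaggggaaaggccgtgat
Pf4 (chr5:90772335-90772434, plus strand): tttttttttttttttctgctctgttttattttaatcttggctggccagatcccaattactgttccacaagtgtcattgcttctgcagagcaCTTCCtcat
Ppbp (chr5:90768418-90768517, plus strand): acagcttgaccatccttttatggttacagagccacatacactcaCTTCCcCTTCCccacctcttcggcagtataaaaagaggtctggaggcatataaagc

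Over the full window of 300 bases, GGAAG on either strand was found in all 7 members with a window and in 71.4% of the 32851 promoters listed. GATAA on either strand was found in 3 members, against 25.4% of all promoters. Gp9 holds it at base -43 from the start, Gp6 at base -143 and Pf4 at base 38, inside the transcript. Itga2b holds 4 matches to GGAAG, at bases -124, -42, -36 and -25, and no match to GATAA in this window.

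Itga2b, at chr11:102453297-102470122 on the minus strand, was the only tested member with a positive log2 fold change under IL-1β in the sorted cells. It was called in neither sorted population. In LSK cells it stood at 284, 313 and 346 CPM with PBS and reached 582 and 451 CPM with IL-1β. Both IL-1β libraries were above all PBS libraries. The log2 fold change was 0.75 ± 0.25 (SE), a 1.69-fold difference that did not pass adjustment over the 13132 genes tested (edgeR quasi-likelihood test, adjusted p = 0.170). The LK levels were 69.6, 74.4 and 97.5 CPM with PBS and 209 and 97.1 CPM with IL-1β. IL-1β replicate 1 was above every PBS library, whereas replicate 2 lay within their range. The log2 fold change was 0.93 ± 0.34 (SE), with an edgeR adjusted p of 0.160, and without IL-1β replicate 2 it was 1.39, with an adjusted p of 0.0287.

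Itgb3, at chr11:104608000-104670476 on the plus strand, encodes the chain that pairs with the product of Itga2b. In LSK cells its level was 113, 123 and 66.6 CPM with PBS and 119 and 65.1 CPM with IL-1β. The groups overlapped, each with a library near 65 to 67 CPM, and the log2 fold change was -0.09 ± 0.35 (SE; edgeR adjusted p = 0.917). Its sign turned without PBS replicate 2 (0.12) or without IL-1β replicate 2 (0.31). LK cells had 15.2, 9.74 and 18.9 CPM with PBS and 13.4 and 5.30 CPM with IL-1β. The groups overlapped there as well, with a log2 fold change of -0.63 ± 0.43 (SE; edgeR adjusted p = 0.423). The difference between the 2 chains was not tested.

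Gp9, at chr6:87778072-87779768 on the plus strand, was low in each sorted library. In LK cells its level was 3.83, 3.50 and 4.02 CPM with PBS and 1.59 and 0.964 CPM with IL-1β, from 12 and 6 read pairs. Both IL-1β libraries were below all PBS libraries, but the log2 fold change of -1.54 ± 0.44 (SE) did not pass adjustment (edgeR adjusted p = 0.0639). Without PBS replicate 3 the adjusted p was 0.0266. In LSK cells the level was 6.89, 5.50 and 6.86 CPM with PBS and 4.26 and 7.59 CPM with IL-1β. The 2 IL-1β libraries stood on either side of the PBS libraries, the log2 fold change was -0.09 ± 0.54 (SE; edgeR adjusted p = 0.944), and it turned to 0.26 without IL-1β replicate 1. The other subunits of the complex were taken from a list of platelet receptors. In LK cells Gp1ba had a log2 fold change of -0.999 ± 0.32 (SE; edgeR adjusted p = 0.0905) and Gp5 of -1.0015 ± 0.35 (SE; adjusted p = 0.128), in both cases with the IL-1β libraries below the PBS libraries. In LSK cells the values were -1.02 ± 0.68 for Gp1ba and -0.17 ± 0.28 for Gp5, with overlapping libraries.

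Vwf, at chr6:125546774-125686679 on the plus strand, fell in IL-1β LK cells and was the only member that edgeR called there. DESeq2 also called Pf4 lower, and without a filter on low counts edgeR called 3 members lower, Vwf, Pf4 and Gp9. Its level in LK cells was 21.8, 20.7 and 29.2 CPM with PBS and 5.97 and 10.1 CPM with IL-1β. Both IL-1β libraries were below all PBS libraries, at log2 fold change -1.58 ± 0.28 (SE; edgeR adjusted p = 0.0119). Fewer cells that transcribe a gene and less RNA per cell cannot be told apart in bulk libraries, for this and for every other value here. The call was lost without IL-1β replicate 1 (log2 fold change -1.25, adjusted p = 0.157). In LSK cells the level was 84.1, 80.7 and 72.9 CPM with PBS and 42.9 and 33.1 CPM with IL-1β. Again both IL-1β libraries were below all PBS libraries, and the PBS libraries were close to each other (79.2 ± 5.74 CPM, SD, n = 3). The log2 fold change of -1.02 ± 0.26 (SE) missed the threshold in edgeR (adjusted p = 0.103) and passed it in DESeq2 (adjusted p = 0.0214), without a filter on low counts (0.0313) and when all 10 sorted-cell libraries were fitted together (0.0293).

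Selp, at chr1:164115264-164150026 on the plus strand, varied more between control libraries. In LSK cells its level was 146, 71.1 and 129 CPM with PBS and 63.6 and 59.7 CPM with IL-1β. The IL-1β libraries were below all PBS libraries, although PBS replicate 2 was near them, and the log2 fold change of -0.86 ± 0.32 (SE) did not pass adjustment (edgeR adjusted p = 0.206). Without PBS replicate 2 it was -1.08, with an adjusted p of 0.0450. LK cells had 23.3, 14.4 and 28.2 CPM with PBS and 16.5 and 13.5 CPM with IL-1β. These groups overlapped, and the log2 fold change was -0.54 ± 0.29 (SE; edgeR adjusted p = 0.300).

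Pf4 and Ppbp are neighbours on chromosome 5, with 2372 bases from the end of Ppbp to the start of Pf4 on the same strand. In LK cells the Pf4 level was 13.7, 5.98 and 17.1 CPM with PBS and 4.91 and 2.89 CPM with IL-1β. Both IL-1β libraries were below all PBS libraries, with PBS replicate 2 close to them. The log2 fold change was -1.63 ± 0.50 (SE; edgeR adjusted p = 0.0861), and the adjusted p was 0.0104 in DESeq2 and 0.0327 in edgeR without PBS replicate 2. In LSK cells the Pf4 level was 45.4, 102 and 59.7 CPM with PBS and 47.4 and 50.0 CPM with IL-1β. Both IL-1β libraries lay within the PBS range, at log2 fold change -0.48 ± 0.36 (SE; edgeR adjusted p = 0.503). Ppbp had 23, 1 and 22 read pairs in the PBS LSK libraries and 8 and 1 with IL-1β, at log2 fold change -0.64 ± 1.41 (SE; edgeR adjusted p = 0.836). In LK cells it had 3, 4 and 7 read pairs with PBS and 1 and 0 with IL-1β, too few to be tested.

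**Figure D1:**
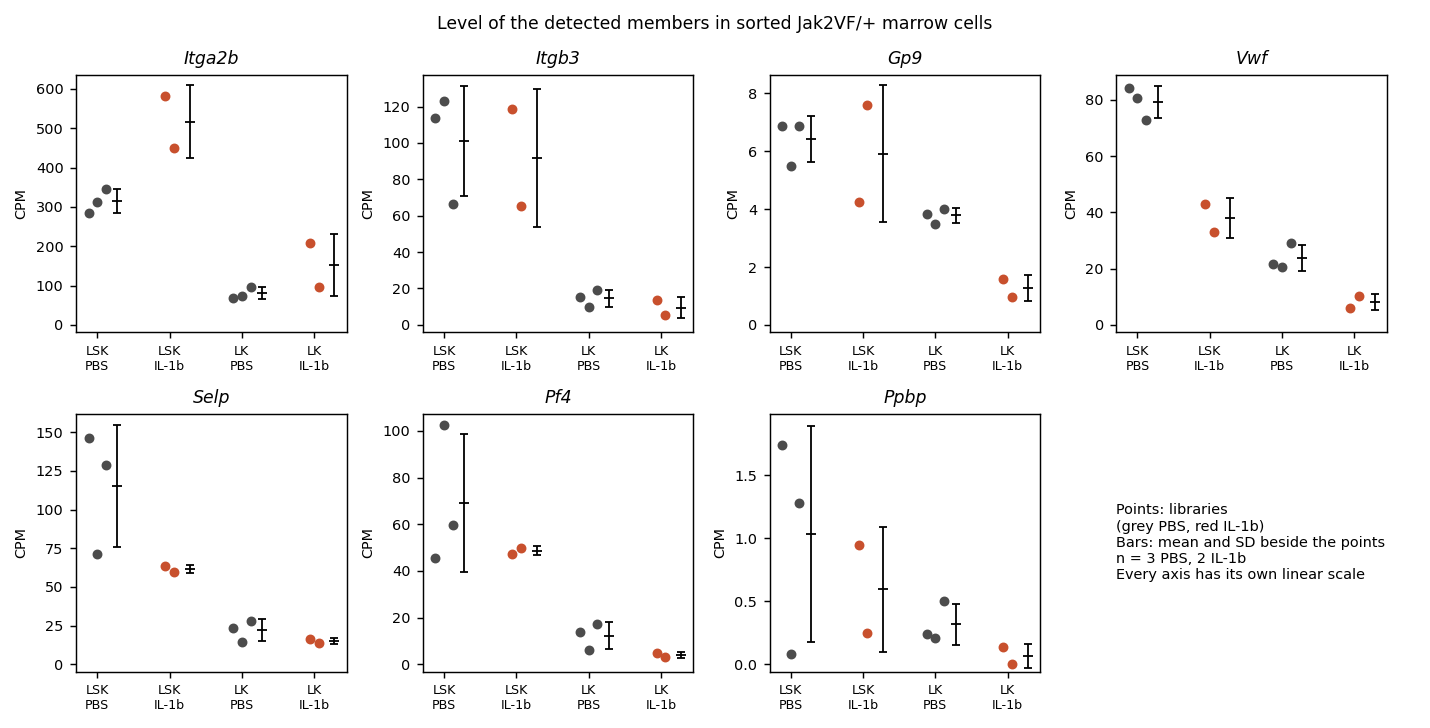
Level in CPM (vertical axes, each with its own linear scale) of the 7 detected members in every sorted-cell library, by population and treatment on the horizontal axis. Points are libraries, and the bars beside them give the mean and SD (n = 3 for PBS, n = 2 for IL-1β). The IL-1β points of Itga2b in LSK cells lie above the PBS points, those of Vwf lie below them in both populations, and every gene is lower in LK than in LSK cells of the same treatment on average.

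In LSK cells 7 members had enough read pairs to be tested and 0 were called by edgeR, with 0.632% of all tested genes called in either direction. A call needed an adjusted p under 0.05 together with a log2 fold change of more than 0.5 in size. At an unadjusted p under 0.05, 3 of the 7 passed (Itga2b, Vwf and Selp), against 18.5% of all tested genes, and DESeq2 called 1, Vwf. IL-1β libraries lay wholly below PBS libraries for 2 members and wholly above them for 1, against 21.4% and 18.2% of all tested genes. In LK cells 6 members were tested and 1 was called lower, against 2.57% of all tested genes, and 3 did not overlap on the lower side, against 22.2%. The median log2 fold change over the tested members was -0.48 in LSK and -1.08 in LK cells, beside -0.06 and -0.03 over all genes tested. Members that missed the filter on low counts are not in these figures.

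**Figure D2:**
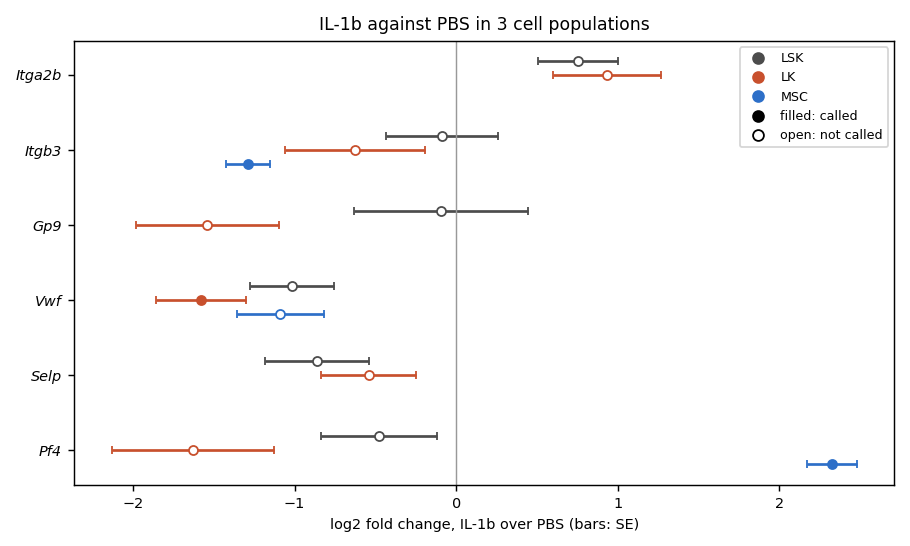
Log2 fold change of IL-1β over PBS (horizontal axis) with its SE for the tested members in LSK (grey), LK (red) and MSC (blue) libraries. Filled points were called by edgeR, and Ppbp, with an SE of 1.41 in LSK, is left out. Vwf lies below 0 in all 3 populations, Itga2b above 0 in both sorted populations, and Pf4 below 0 in LK and above 0 in MSC.

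Whether IL-1β acted differently on LK than on LSK cells was tested as an interaction over the 10 sorted-cell libraries. No tested member of 7 was called by edgeR, with 0.0289% of all genes called, and 0 passed at an unadjusted p under 0.05, against 14.2% of all genes. DESeq2 and limma-voom also called 0 members. Gp9 had a difference of the log2 fold changes of -1.41 ± 0.65 (SE; edgeR adjusted p = 0.354) and Pf4 of -1.12 ± 0.64 (SE; adjusted p = 0.443), both lower in LK. For Itga2b the difference was 0.21 ± 0.39 (SE; adjusted p = 0.847).

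Within each library the ratio of a member to Itga2b does not depend on the scaling of the library. This ratio was chosen after the values were seen. Vwf had 29.6, 25.8 and 21.1 read pairs per 100 of Itga2b in LSK cells under PBS, against 7.37 and 7.34 under IL-1β. In LK cells the ratio was 31.3, 27.8 and 29.9 under PBS against 2.86 and 10.4 under IL-1β. The 2 treatments did not overlap in either population. Vwf was not alone in this: of the 5 members set against Itga2b, the ratios of 4 lay wholly lower under IL-1β in LSK cells (Vwf, Pf4, Selp and Gp9) and those of all 5, Itgb3 included, in LK cells. Itga2b itself, the divisor, had a positive log2 fold change in both populations, although it was called in neither and its LK libraries overlapped. A lower ratio was common: it separated the treatments for 54.9% of genes in LSK and 46.6% in LK cells.

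Markers of other cell types moved with the treatment in the same libraries. The summed level of 14 neutrophil granule genes was 2208 to 3210 CPM in PBS and 10201 to 12246 CPM in IL-1β LSK cells, and 4543 to 9802 against 19036 to 22389 CPM in LK cells, with Mpo, Prtn3 and Elane highest in LK cells. Of these genes, 5 of 12 tested rose in LSK and 10 of 13 in LK cells. Of all tested genes, edgeR called 0.32% higher and 0.312% lower in LSK cells, and 6.77% higher and 2.57% lower in LK cells. Ly6g, the marker of mature neutrophils, was at 0 in every sorted library. The 11 stem cell markers summed to 793 to 1099 CPM in PBS and 480 to 603 CPM in IL-1β LSK cells, where 2 of 11, Hlf and Robo4, fell. In LK cells they summed to 335 to 407 CPM with PBS and 361 to 434 CPM with IL-1β. There 1 of 9 tested, Hoxa9, rose and 0 fell. In LSK cells Pecam1 was highest of the 8 genes of endothelium, a cell type that also makes Vwf and Selp. These 8 summed to 275 to 316 CPM with PBS and 169 to 183 CPM with IL-1β in LSK cells, and 0 of 7 tested were called. In LK cells they summed to 103 to 152 CPM with PBS and 87.6 to 105 CPM with IL-1β, where 1 of 5 tested fell. Cdh5 was at or near 0 in all sorted libraries. In LK cells the 14 erythroid genes summed to 5227 to 7079 CPM with PBS and 3333 to 3798 CPM with IL-1β, where 5 of 14 fell, and the 8 mast cell and basophil genes summed to 153 to 405 and 1236 to 2373 CPM, where 3 of 7 rose. In LSK cells the erythroid genes summed to 893 to 1062 CPM with PBS and 620 to 970 CPM with IL-1β, and 0 of 12 tested were called. The mast cell and basophil genes summed to 91.3 to 139 CPM in PBS and 327 to 426 CPM in IL-1β LSK cells, where 2 of 8 rose. The 8 lymphoid genes summed to 348 to 624 CPM in PBS and 37.5 to 67.4 CPM in IL-1β LSK cells, where Dntt and Flt3 fell (2 of 4 tested), and to 32.7 to 44.3 and 4.18 to 9.16 CPM in LK cells, where the same 2 genes fell (of 3 tested). Cd3e and Rag1 were at or near 0 in all sorted libraries. The lineage antibodies that the methods list for progenitor staining include Gr-1 and Ter119, which mark mature granulocytes and erythroid cells. The part of these cell types, or of their progenitors, in the values of the members was not tested.

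Of 63 other platelet and megakaryocyte genes in 5 lists, 56 were tested in LSK cells. Of these, 0 were called higher and 2 lower by edgeR, against 0.32% and 0.312% of all tested genes. Tbxa2r, the thromboxane A2 receptor, was at 22.9, 28.3 and 23.5 CPM with PBS and at 2.96 and 5.63 CPM with IL-1β. Both IL-1β libraries were far below all PBS libraries, and the gene fell, at log2 fold change -2.54 ± 0.43 (SE; edgeR adjusted p = 0.0352). Of the 14 receptors tested, 12 had a negative log2 fold change, against 53.5% of all tested genes. The median of the receptors was -0.96, beside -0.06 over all genes tested. In the granule list 7 of 14 were negative and 7 positive, with a median of -0.03. In LK cells 0 of 14 receptors were called by edgeR, 9 had an unadjusted p under 0.05, all of them lower, against 24.7% of all tested genes in either direction, and the median was -1.0001. Other tools were not run on the lists.

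In LK cells 54 of these other genes were tested, and 7 rose and 5 fell, against 6.77% of all tested genes called higher and 2.57% called lower. The granule list had 3 of 13 higher: Clu (clusterin) at log2 fold change 4.01, Serpine2 (protease nexin-1) at 2.76 and Srgn (serglycin, the core proteoglycan of secretory granules) at 1.72. These proteins are not restricted to platelets, and serglycin is also a component of neutrophil and mast cell granules. Ptgs1 (cyclooxygenase-1) rose by a log2 fold change of 2.44, and in the cytoskeleton list Actn1 (α-actinin-1) rose by 2.10 and Tpm4 (tropomyosin 4) was lower at -2.38. Tubb1, the β-tubulin of proplatelets, had 0 to 5 read pairs in LK libraries and was not tested. The log2 fold change of Gata1, the GATA factor of erythroid and megakaryocytic cells, was -0.88 ± 0.12 (SE; edgeR adjusted p = 0.00481), with 234, 222 and 204 CPM in PBS and 108 and 131 CPM in IL-1β libraries. Nfe2, which drives platelet release, had a log2 fold change of -0.09 in both populations. The remaining called genes were named after their values were seen: Gfi1b (-1.41), Zfpm1 (-1.16) and Tal1 (-0.70) fell with Gata1, and Fli1 (1.21) and Plcg2 (1.24) rose. Zfpm1, Gfi1b, Tal1 and Gata1 also act in erythroid cells. In LSK cells Gata1 had a log2 fold change of 0.39 (edgeR adjusted p = 0.459).

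**Figure D3:**
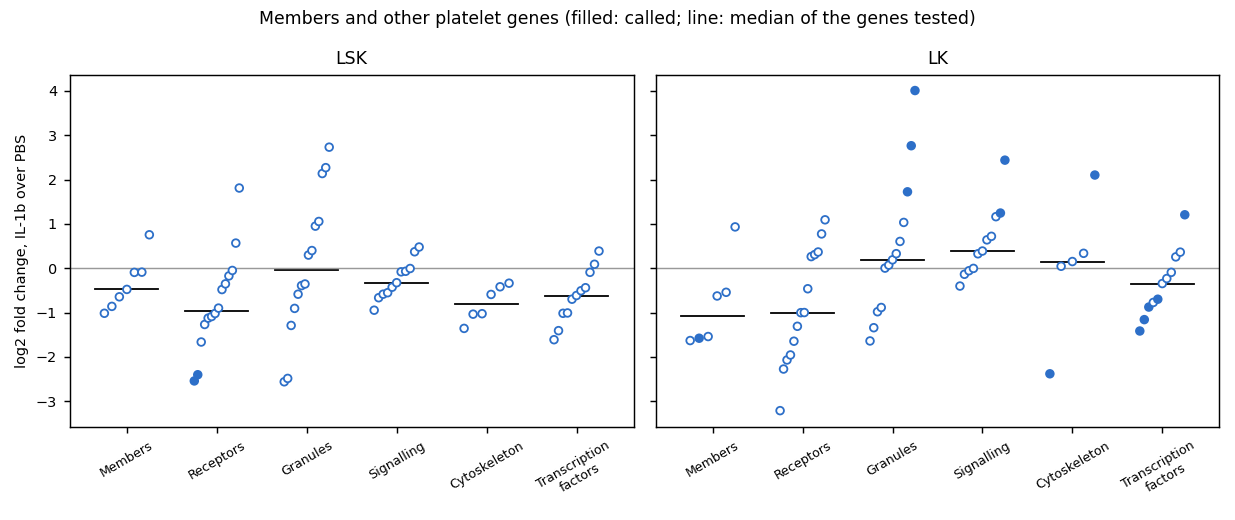
Log2 fold change of IL-1β over PBS (vertical axis) of the tested members and of the tested genes of 5 other platelet lists (horizontal axis) in LSK (left) and LK cells (right). Each point is a gene, filled where edgeR called it, and the line is the median of the list. Filled points in LSK cells are in the receptor list, while in LK cells they lie on both sides of 0 and include 1 member, Vwf.

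The members were higher in LSK than in LK cells under either treatment. Under PBS, 6 members were tested and 5 were called higher in LSK cells, against 18.4% of all tested genes, and all 6 were without overlap on that side, against 26.2%. The log2 fold change of LSK over LK was 2.75 ± 0.32 (SE) for Itgb3, 2.46 ± 0.44 for Pf4, 2.36 ± 0.33 for Selp, 1.93 ± 0.18 for Itga2b and 1.69 ± 0.20 for Vwf. The edgeR adjusted p ranged from 0.000268 for Itga2b to 0.00370 for Pf4. For Gp9 it was 0.73 ± 0.36 (SE; adjusted p = 0.154). Under IL-1β the same 5 were called, against 4.18% of all tested genes called higher, at 3.62 ± 0.31 (SE) for Pf4, 3.29 ± 0.47 for Itgb3, 2.26 ± 0.33 for Vwf, 2.04 ± 0.22 for Selp and 1.76 ± 0.36 for Itga2b. Gp9 was at 2.15 ± 0.57 (SE; edgeR adjusted p = 0.0625). Its edgeR adjusted p was 0.0168 with the replicate number as a block, which paired LSK and LK libraries by the number alone. The Itga2b call under IL-1β was lost without LSK IL-1β replicate 1 (adjusted p = 0.382), LSK IL-1β replicate 2 (0.309) or LK IL-1β replicate 2 (0.0536), and the Itgb3 call without LSK IL-1β replicate 2 (0.0641). Of the other platelet genes, 33 of 54 were higher and 5 lower in LSK cells under PBS, and 12 and 2 of 52 under IL-1β. Of all tested genes, 12.8% were called lower in LSK cells under PBS and 4.14% under IL-1β. Stem cell markers stood on the same side, with 11 of 11 called higher in LSK cells under PBS, and 13 of 14 erythroid markers were lower. The 11 include Ly6a, the gene of Sca1, by which LSK cells were selected, so its side follows from the sort.

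**Figure D4:**
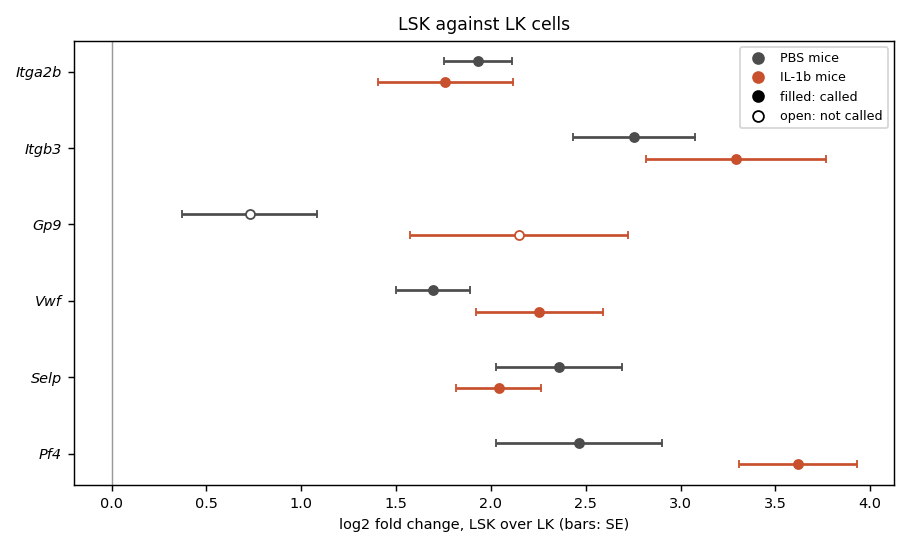
Log2 fold change of LSK over LK cells (horizontal axis) with its SE for the 6 members tested, in PBS-treated (grey) and IL-1β-treated mice (red). Filled points were called by edgeR. All values lie above 0, from 0.73 for Gp9 under PBS to 3.62 for Pf4 under IL-1β.

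Per length, Pf4 and Itga2b had the highest levels of the 9 members in all 4 sorted groups. In PBS LSK cells the order was Pf4 (95.9 ± 41.1 RPKM, SD, n = 3), Itga2b (57.6 ± 5.67), Selp (26.2 ± 8.93), Itgb3 (17.1 ± 5.11), Gp9 (7.28 ± 0.904), Vwf (4.93 ± 0.357) and Ppbp (0.953 ± 0.793). The libraries of Pf4 and Itga2b overlapped, as did those of Selp and Itgb3, and the other neighbours in this order did not overlap. In IL-1β LSK cells Itga2b was first at 94.7 ± 17.1 RPKM (SD, n = 2) and Pf4 second at 67.5 ± 2.50. In LK cells Pf4 (17.0 ± 7.94 RPKM, SD, n = 3) and Itga2b (14.8 ± 2.74) were level under PBS, and under IL-1β Itga2b stood at 28.1 ± 14.5 and Pf4 at 5.41 ± 1.98 RPKM (SD, n = 2). The exchange of places was not tested.

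The genes most like the members were sought by Pearson's r with the mean standardised log2 CPM of the 7 members that passed the filter, over the 10 sorted-cell libraries. Among 11358 other genes these were Fam117a (0.992), Hivep3 (0.991), Ccnd1 (0.985), F2r (0.984) and Clstn3 (0.980). Ccnd1 encodes cyclin D1 and F2r the thrombin receptor PAR1. The libraries share 2 populations that differ in level, and that difference enters these values. Over the 5 libraries of LSK cells alone r ran from 0.405 (Clstn3) to 0.984 (Hivep3), and over those of LK cells from 0.933 (Hivep3) to 0.988 (Clstn3). Each of the 7 members is part of the mean, which raises its own r. Among them Selp followed the mean most closely (0.976), and Itga2b (0.777) and Ppbp (0.743) least.

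In the MSC cultures members moved in both directions. Pf4 was at 17.0 and 22.3 CPM with PBS and at 95.5 and 105 CPM with IL-1β. Both IL-1β libraries were far above both PBS libraries, and Pf4 rose by a log2 fold change of 2.33 ± 0.16 (SE; edgeR adjusted p = 0.00176), a 5.01-fold difference. Ppbp had 0 read pairs in both PBS libraries, whereas the IL-1β libraries held 42 and 10, which is at least 3.11-fold higher against a floor of 3 read pairs per library. It was called by edgeR (adjusted p = 0.0406), and the call was lost without IL-1β replicate 2 (adjusted p = 0.320). DESeq2 gave it no adjusted p, and without IL-1β replicate 1 it had too few read pairs to be tested. Itgb3 was at 60.6 and 52.0 CPM with PBS and at 21.5 and 24.6 CPM with IL-1β. It fell, at log2 fold change -1.29 ± 0.14 (SE; edgeR adjusted p = 0.00595), and the call was lost without IL-1β replicate 1 (adjusted p = 0.152) or replicate 2 (0.0813), where the lone library left was assumed to vary like the PBS libraries. Vwf was at 33.5 and 59.3 CPM with PBS and 22.7 and 21.5 CPM with IL-1β, at log2 fold change -1.09 ± 0.27 (SE; edgeR adjusted p = 0.0600). It passed in DESeq2 (adjusted p = 0.00425) and in limma-voom (0.0381).

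So 2 of 4 tested members rose in MSC, against 7.14% of all tested genes, and 1 fell, against 4.31%. The treatments did not overlap for any of the 4, against 31.3% of all tested genes on the higher and 29.8% on the lower side. The 5 members that were not tested were near 0 in these cultures. Itga2b had 3 to 13 read pairs, Selp 1 to 17, and Gp9, Gp1bb and Gp6 had 0 in all 4 libraries. In the PBS cultures Pf4, Itgb3 and Vwf stood at means of 19.6, 56.3 and 46.4 CPM. The cultures also held high levels of macrophage genes. The summed level of 10 macrophage markers was 13233 to 17166 CPM with PBS and 33408 to 34370 CPM with IL-1β, with Lyz2 highest and 5 of 9 tested called higher, and Cd163 was at or near 0. The 11 mesenchymal markers summed to 1510 to 2959 and 3966 to 4469 CPM, with Col3a1 and Col1a1 highest under IL-1β and Lepr at or near 0. The part of macrophages in the Pf4 and Itgb3 values was not tested. Of the other platelet genes, 8 of 47 tested rose and 3 fell in MSC. The 3 that fell, named after their values were seen, were the receptors P2ry1 (-0.78), Cd9 (-0.91) and Cd36 (-1.15), which many cell types express.

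**Figure D5:**
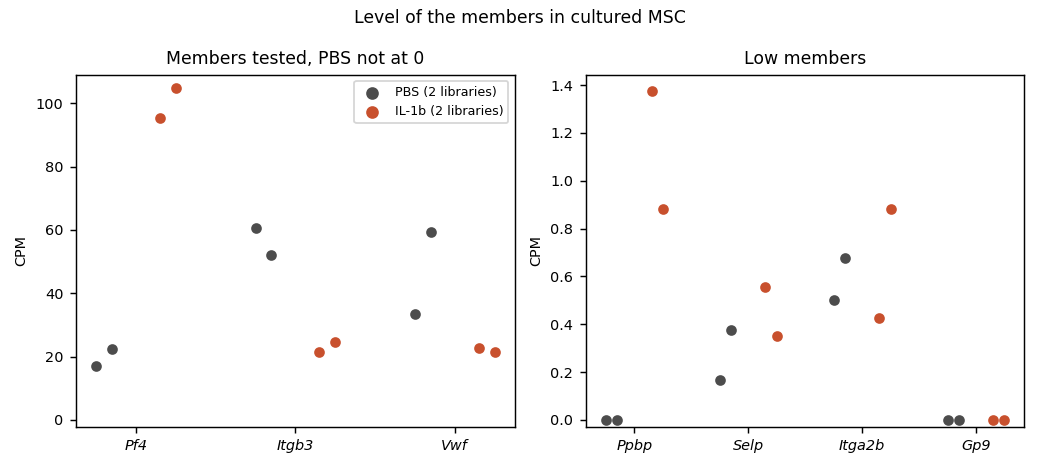
Level in CPM (vertical axes, separate linear scales) of members in the 4 MSC libraries, with PBS in grey and IL-1β in red. The left panel shows Pf4, higher with IL-1β, and Itgb3 and Vwf, lower, and the right panel shows Ppbp, Selp, Itga2b and Gp9, all below 1.4 CPM.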

How the data were processed

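RNA-seq counts were analysed for 10 libraries of sorted Jak2VF/+ marrow cells and 4 of cultured wild-type MSC, grouped by the labels. The authors deposited raw counts, the number of read pairs per gene, made with fastp 0.20.0, HISAT2 2.0.1 and featureCounts 2.0.2 (paired, reverse-stranded, Ensembl release 100, GRCm38) per the file headers and the submitters' processing notes. The methods name GenomicAlignments and DESeq2. A further IL-1β MSC library named in the header of its table was not analysed here. Symbols came from GENCODE M21, which held 55227 of the 55487 identifiers. The members and gene lists were chosen with earlier results of these data known. Genes named besides the 9 members are Gp1ba, Gp5, Tubb1, Gata1 and Nfe2, up to 6 called genes of the other platelet lists in each of LSK and LK with the largest fold change, and the 5 genes most like the members. Exceptions are stated where they occur, and a gene that the rule also names is not reported here.

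Each comparison was fitted on its own libraries in edgeR 4.0.16 (R 4.3.3) with filterByExpr, TMM factors and the robust quasi-likelihood test, and p-values were adjusted over all genes tested by the Benjamini-Hochberg method. Genes were called at an adjusted p under 0.05 where the log2 fold change was also more than 0.5 in size. The SE is the log2 fold change divided by the square root of F. Levels in CPM and RPKM were computed from the counts with TMM factors shared by the 10 sorted-cell libraries or by the 4 MSC libraries. The alternatives were DESeq2 1.42.0, limma-voom (limma 3.58.1), other size factors, other filters, no fold threshold, a joint fit, a replicate block and each library left out. Replicate numbers were used as a block to pair LSK with LK libraries, by the number alone. The deviations of same-numbered PBS libraries correlated at 0.161, 0.118 and 0.421, and those of different-numbered PBS libraries at -0.342 to 0.154. LSK PBS replicate 2 correlated more with LK PBS replicate 1 (0.154) than with replicate 2, so these values do not settle the pairing. With 2 libraries the IL-1β deviations mirror each other, so the 0.115 of both IL-1β pairs is a single value. With this block 2057 genes were called between LSK and LK under IL-1β (977 without it) and 24 in the interaction (4 without it). In simulated data a set of genes was changed by a log2 fold change of 2. Of these, 63.0% of 189 were recovered in LSK (12735 genes), with 8 false calls among the other genes. In LK 83.2% of 191 were recovered (12414 genes, 15 false calls) and in MSC 81.2% of 197 (12974 genes, 23 false calls). Between LSK and LK 83.2% of 191 were recovered under PBS (12 false calls) and 89.3% of 196 under IL-1β (28 false calls). In the interaction 47.9% of 190 were recovered (13434 genes, 1 false call). The reported changes of the tested members under IL-1β in sorted cells were smaller, the largest being -1.63 for Pf4 in LK cells. Recovery of changes of that size was not simulated. Every column of the tables had a sample. Depth ran from 4393233 read pairs (LSK IL-1β) to 30871055 (MSC IL-1β). Figures were drawn with matplotlib 3.10.9.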

Additional observations from a re-analysis of the deposited data

Results flagged for a closer look

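Pf4 was the member whose response to IL-1β had opposite signs without overlap of the libraries in different populations. In MSC each IL-1β library exceeded each PBS library, at a log2 fold change of 2.33, and in LK cells each IL-1β library was below the 3 PBS libraries, at -1.63, a value that edgeR did not call (adjusted p = 0.0861). The difference between the populations was not tested. The MSC were wild-type cells treated in culture for 72 h and the LK cells came from Jak2VF/+ transplant recipients treated for 16 weeks, so population, genotype and exposure cannot be told apart. The MSC cultures also held high levels of macrophage genes, and the part of macrophages in the Pf4 values was not tested. No group held the 4 libraries that a check for outlying libraries needs.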

How the results depend on the processing

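Of 468 recomputed values of single members, 431 kept their direction and their side of the threshold. Another 23 passed it that had not, 8 no longer passed and 6 turned sign. The causes of these shifts were not tested. The setting without a fold threshold reused the reported fit, so its values could not turn sign. Members that dropped out of an alternative fit were not counted. A member that stayed uncalled counts as kept. In LSK cells Ppbp turned to 0.017 with limma-voom, Itgb3 ran from -0.61 to 0.31 and Gp9 from -0.52 to 0.26 with each library left out. In the interaction, with each library left out, Ppbp ran from -4.32 to 0.011 and Itga2b from -0.49 to 0.63. The 8 lost calls and their adjusted p are given beside the results.

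How many genes were called depended on the fit. In LSK cells 83 genes were called by edgeR as reported, 870 with DESeq2, 21 with limma-voom, 869 without a filter on low counts and 1228 with all sorted-cell libraries fitted together. Of the members, 0 were called by edgeR as reported or by limma-voom, and 1, Vwf, was called lower with DESeq2, without a filter and in the fit of all sorted-cell libraries. In LK cells the 1199 calls became 1844 without a filter, where 3 members were lower, and 489 in the fit of all sorted-cell libraries. DESeq2 called 2 members lower there, Vwf and Pf4. In MSC the 1515 calls became 2354 without a filter, and 2 members, Itgb3 and Vwf, were lower with DESeq2, limma-voom, upper-quartile factors and no filter. DESeq2 called 1 member higher in MSC, Pf4, and gave Ppbp no adjusted p. Between LSK and LK under IL-1β the 977 calls became 2164 without a filter. The 4 calls of the interaction became 324 with DESeq2, 1 with limma-voom and 398 without a filter.

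With each library left out in turn, all calls ran from 3 to 480 in LSK, 66 to 2409 in LK, 38 to 3819 in MSC, 2145 to 4965 between LSK and LK under PBS, 358 to 4170 under IL-1β and 0 to 336 in the interaction. LSK calls were 6 without IL-1β replicate 1 and 3 without replicate 2, and LK calls were 66 and 331. Members called lower ran from 0 to 1 in LSK, 0 to 2 in LK and 0 to 2 in MSC, and members called higher from 0 to 1 in LK and 1 to 2 in MSC. A lone library left in a group was assumed to vary like the others.

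The replicate number as a block paired LSK with LK libraries and gave 2057 calls under IL-1β and 24 in the interaction. Between PBS and IL-1β the mice differed and the samples share only a number, so the pairing has no meaning there. That block gave 702 calls in LSK, with 1 member lower, and 2331 in LK, with 3 members lower. Apart from these and from Gp9 between LSK and LK under IL-1β, the block changed no call of a member. In MSC no paired analysis was possible because the treatments share a single replicate number.

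Among the sorted-cell libraries those of IL-1β had the lowest depth, 4393233 to 8641124 read pairs, and Gp9 in LK cells rests on 6 and 12 of them. Levels of 3 read pairs or fewer could not be told from 0 at this depth.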

Other observations

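In 1 control library the neighbouring chemokine genes stood at opposite ends of the PBS LSK range, Pf4 highest and Ppbp lowest. In LSK PBS replicate 2, Pf4 had its highest level of the sorted-cell libraries (102 CPM, 1322 read pairs), while Ppbp had 1 read pair, against 23 and 22 in the other PBS LSK libraries. The same library had the highest Tubb1 value, 54 read pairs against 5 and 13, and the lowest Selp value of the PBS LSK libraries, 71.1 CPM. These values were noticed after the data were seen and were not tested.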
